A study of Homo sapiens with 9 samples.

Results

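INPP5A is a gene on the plus strand of chromosome 10 that encodes a membrane-associated inositol polyphosphate 5-phosphatase. The gene was chosen by its number of miR-342-3p peaks, so that number is a description and was not tested. Its members are the Ago-HITS-CLIP peaks whose midpoint lies on the gene's strand within its annotated body (chr10:134351291-134596984, GRCh37, to which hg19 corresponds). There were 10 such peaks among the 3450 of the miR-342-3p list and 0 among the 5010 of the miR-342-5p list, which makes 10 of 8460 peaks in both lists. The opposite strand of the same span had 0 peaks of either mimic. NKX6-2, a homeobox gene on the opposite strand that overlaps the last 302 nt of INPP5A, had 0 peaks in either list.

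The cells were MDA-MB-231HM, labelled as wild type and as breast in origin. The line derives from MDA-MB-231, an established line of human triple-negative breast cancer, and is highly metastatic. They were transfected with a miRVana mimic at 20 nM, crosslinked after 48 h and used for immunoprecipitation of Ago with its attached RNA. There were 9 libraries, 3 each with the miR-342-3p mimic, the miR-342-5p mimic and a negative control mimic. Each mimic is a synthetic duplex, so all groups share a transfection, and the level of miRNA in these cells is that of an added mimic in a single cell line. The authors deposited 2 lists of peaks, in which each miR-342 strand was set against the negative control, with the replicates merged. Each peak has a position, a summit and a score, which the study's methods describe as reads above background, and no peak in either list scored below 5. There is therefore no value per library, the depth of the libraries is unknown, and no error between replicates could be computed. Whether a library stood apart, and whether the cells express the markers of their line, could not be checked on lists of peaks. Both lists share the negative control libraries.

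The enzyme encoded by INPP5A removes the 5-phosphate from inositol 1,4,5-trisphosphate, the second messenger that opens calcium channels of the endoplasmic reticulum, and so ends the calcium signal. A miRNA guides Ago to RNAs that pair with its seed, the bases near its 5′ end, and most known repression runs through sites in the 3′UTR of the mature mRNA. Introns are removed in the nucleus, and a site in an intron is not carried into the mRNA.

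The mature sequence of miR-342-3p (RefSeq, 23 nt) is shown because the sites in INPP5A are read against it, with the seed, bases 2 to 8, in capitals.
hsa-miR-342-3p: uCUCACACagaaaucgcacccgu
A site was an 8mer GUGUGAGA, or a 7mer GUGUGAG or UGUGAGA, on the strand of the peak. The peaks in INPP5A were numbered 1 to 10 along the gene. Peaks 4 and 5 are shown because they hold the most sites, and peak 6 because it has the highest score in the intron, with each site in capitals.
Peak 4 (chr10:134568611-134568747, plus strand): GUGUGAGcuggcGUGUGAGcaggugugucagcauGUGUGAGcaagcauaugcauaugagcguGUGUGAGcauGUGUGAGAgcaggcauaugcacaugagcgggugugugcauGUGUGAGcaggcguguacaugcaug
Peak 5 (chr10:134568763-134568874, plus strand): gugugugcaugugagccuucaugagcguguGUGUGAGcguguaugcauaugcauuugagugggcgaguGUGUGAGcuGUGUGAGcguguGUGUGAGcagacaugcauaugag
Peak 6 (chr10:134568876-134568961, plus strand): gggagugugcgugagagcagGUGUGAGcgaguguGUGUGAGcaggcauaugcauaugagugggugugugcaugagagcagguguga
Peak 4 holds 6 whole sites, peak 5 holds 4 and peak 6 holds 2. The last bases of peak 6 belong to a further site, which runs 1 nt past its end. Peaks 9 and 10 are shown because neither has a site. In peak 9 the capitals mark alternating G/U runs of at least 10 nt, and peak 10 holds no such run.
Peak 9 (chr10:134569861-134569933, plus strand): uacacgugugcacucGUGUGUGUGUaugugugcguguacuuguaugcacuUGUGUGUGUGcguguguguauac
Peak 10 (chr10:134591212-134591286, plus strand): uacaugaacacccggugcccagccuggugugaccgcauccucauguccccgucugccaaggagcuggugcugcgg

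The peaks fell in a pair of places in the gene. Peaks 1 to 9 lay in intron 11 of the 15 introns of the canonical transcript, and peak 10 lay in coding exon 13 of its 16 exons. Introns held 3.65% of all miR-342-3p peaks, and INPP5A carried 9 of the 126 intron peaks. Only INPP5A and AHNAK, with 16 peaks, had 10 or more miR-342-3p peaks, which is 0.0867% of the 2308 genes with a peak. AHNAK was named after its value was seen. The exons of the canonical transcript make up 3000 nt of the 245694 nt of the gene (1.22%).

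**Figure D1:**
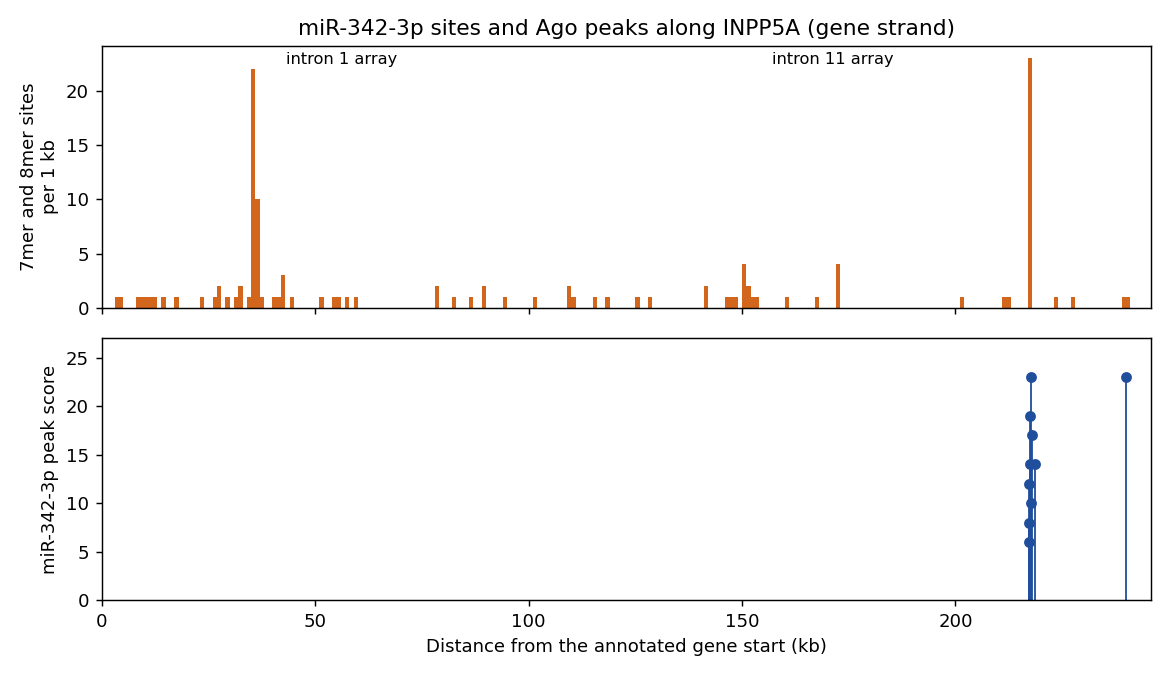
Upper panel, 7mer and 8mer sites of miR-342-3p per 1 kb along INPP5A on the strand of the gene; lower panel, the score of each of the 10 miR-342-3p peaks at its summit, with the distance from the annotated gene start in kb on the horizontal axis. Sites are piled up in an array in intron 1 and in another in intron 11, and the peaks lie over the latter and near the end of the gene.

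Peaks 1 to 8 formed a block with short gaps. It ran from chr10:134568314 to chr10:134569159, a length of 846 nt, of which 814 nt (96.2%) lay under a peak, with gaps of 1 to 15 nt between neighbours. The scores along the block were 6 for peak 1, 8 for peak 2, 12 for peak 3, 14 for peak 4, 19 for peak 5, 23 for peak 6, 10 for peak 7 and 17 for peak 8. They were lowest at the 5′ edge and highest at peak 6, and without values per library the differences among them cannot be set against replicate error. Peak 9 followed 701 nt after the block with a score of 14, and peak 10 lay 21278 nt farther on with a score of 23.

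None of these scores was high for the list. The median over the 10 peaks was 14 (range 6–23), compared with 24 over all miR-342-3p peaks (quartiles 13 and 49) and 16 over the 117 intron peaks outside INPP5A (quartiles 11 and 22). Peaks 6 and 10, the highest, scored above 47.7% of the list, and peak 1 above 1.07%. The lowest score, 6, is just above the minimum of 5, and weaker binding would not be listed. The peaks were wider than the list, with a median of 96 nt (range 43–138) against 65 nt.

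**Figure D2:**
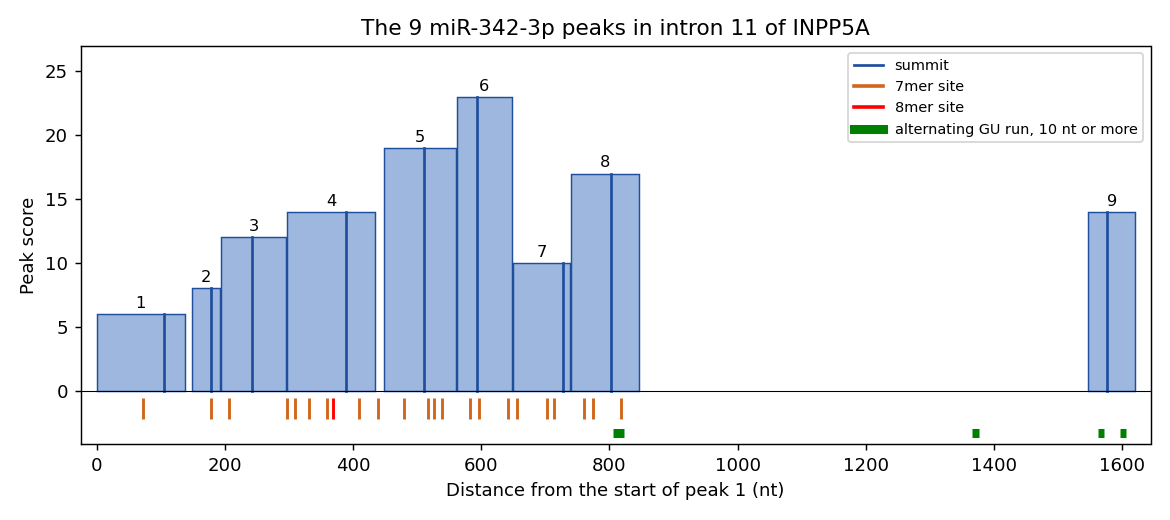
Score of the 9 miR-342-3p peaks in intron 11 of INPP5A, against the distance in nt from the start of peak 1. Each bar spans a peak and is numbered, the line within it marks the summit, ticks below mark sites, and green bars mark alternating GU runs of at least 10 nt; peaks 1 to 8 sit over the sites, and peak 9 sits over runs.

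All 8 peaks of the block had a site within 50 nt of the summit, and peaks 9 and 10 had none. The sequence of peak 10 shown above does hold GUGUGA, the 6mer match to bases 3 to 8, which was not counted as a site. Over all miR-342-3p peaks, 20.6% had a site this close, and over intron peaks outside INPP5A 47.9% (56 of 117). The number of sites around the summit was 1 for peaks 1 and 3, 2 for peaks 2 and 6, 3 for peaks 4, 7 and 8, and 4 for peak 5. More than 1 site was thus present in 6 of the 10 peaks, compared with 1.65% of the whole list and 20.5% of the intron peaks outside INPP5A. Peaks 6 to 8 lie in a repeat. The windows of peaks 2 and 3 share a site, and so do those of peaks 7 and 8. The peaks of the block are therefore not independent, and no test was made. On the opposite strand, 0 of the 10 windows had a site, compared with 22 of 3450 over the list and 0 of 117 intron peaks outside INPP5A. This count therefore does not set the peaks of INPP5A apart.

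The sites lay beside the summits, and none covered a summit. The centre of the nearest site was 4 nt from the summit of peak 2, 5 nt from that of peak 6, 10 nt from those of peaks 5 and 7, and 16.5 nt from that of peak 4. It was 19 nt away for peak 8, 29 nt for peak 1 and 33 nt for peak 3. Within 25 nt of the summit, 6 peaks still had a site. The single 8mer of the block, GUGUGAGA, was the site nearest to the summit of peak 4, and the nearest site of the other 7 peaks was GUGUGAG.

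The block held 23 sites, of which 22 lay under a peak, counting any overlap. All 23 contained GUGUGAG, the match to bases 2 to 8 of miR-342-3p. The base that follows, which is A in an 8mer, was C in 21 of them and U in 1. The base before GUGUGAG was U in 17, which extends the pairing to base 9 of the miRNA. The block had 27.2 sites per kb, compared with 0.421 per kb over the rest of the gene. It made up 0.344% of the gene's length and held 18.3% of its 126 sites. There was no miR-342-3p site on the opposite strand of the block, and no site of miR-342-5p on its own strand.

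The 3′ part of the block is a tandem repeat of about 60 nt. When the block was set against itself at a series of shifts, the identity was highest, 52.4%, at 60 nt. The units cut at the commonest word of 16 nt are shown for the regular stretch because each carries a pair of sites, which are in capitals.
Intron 11 unit 3 (chr10:134568908-134568967, plus strand): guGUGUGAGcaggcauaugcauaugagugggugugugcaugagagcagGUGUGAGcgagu
Intron 11 unit 4 (chr10:134568968-134569025, plus strand): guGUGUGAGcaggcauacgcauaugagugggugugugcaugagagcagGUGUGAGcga
Intron 11 unit 5 (chr10:134569026-134569085, plus strand): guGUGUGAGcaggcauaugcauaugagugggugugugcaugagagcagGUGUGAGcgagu
These units lie under peaks 6 to 8. Units 1 and 2, which precede them, are longer and irregular, at 106 and 417 nt, and lie under peaks 1 to 6. Unit 6, which follows them, also carries 2 sites and lies under peak 8. It is 74 nt long and differs from unit 5 by 18 edits (bases changed, added or lost).

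Repeated sequence can place reads at more than 1 position. Per the study's methods, alignments were filtered on quality with Samtools before peaks were called, and the threshold of that filter is not given in the sources used here. Windows of 31, 50 and 70 nt were therefore counted in GRCh37 on both strands. In peaks 2, 3, 4 and 5 every window of 31 nt was found once in the genome, as was the case for peaks 9 and 10. In peak 6, which had the highest score of the block, 12 of 56 windows of 31 nt (21.4%) were found once, and the others occurred up to 3 times. These counts include copies within the block itself, where units 3 and 5 shown above have the same sequence. This share was 71.7% for peak 7, 59.2% for peak 8 and 98.1% for peak 1. At 50 nt it was 83.8% for peak 6, 98.2% for peak 8 and 100% for the other peaks wide enough to hold such a window. The part of these repeats in the scores was not tested.

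A block of sites of similar size in intron 1 carried no peak. It ran from chr10:134386478 to chr10:134387467, 35187 nt after the gene start, and held 27 sites in 990 nt, or 27.3 per kb. None of its 27 sites lay under a miR-342-3p peak, while 22 of the 23 sites in the intron 11 block did. Over all intron groups of 10 or more sites, 80 of 3829 sites (2.09%) lay under a peak. The intron 1 block was picked after the sites of the gene had been counted. All of its sites were 7mers. The repeat is shorter and more regular here, with 82.5% identity at a shift of 37 nt. The first 4 of its 25 units are shown for comparison with those of intron 11.
Intron 1 unit 1 (chr10:134386478-134386514, plus strand): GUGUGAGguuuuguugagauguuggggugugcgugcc
Intron 1 unit 2 (chr10:134386515-134386551, plus strand): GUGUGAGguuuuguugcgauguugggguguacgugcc
Intron 1 unit 3 (chr10:134386552-134386588, plus strand): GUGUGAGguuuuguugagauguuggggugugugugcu
Intron 1 unit 4 (chr10:134386589-134386623, plus strand): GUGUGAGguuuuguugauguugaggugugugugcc
The site is the same in both blocks and its surroundings differ. In intron 1 the 7mer was followed by G at all 27 sites and preceded by C at 19 and by U at 8. In intron 11 it was preceded by U at 17, by G at 5 and by C at 1.

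The intron 1 block was also less unique in the genome. Of its 960 windows of 31 nt, 106 were found once, compared with 669 of 816 (82.0%) in the intron 11 block, and the commonest occurred 15 times. At 50 nt these shares were 42.2% and 92.7%, and at 70 nt 75.7% and 97.9%. The tags were cut from a gel at about 30–70 nt, per the labels, which spans the lengths of these windows. The part of this difference, and that of the bases around the site, in the absence of peaks was not tested. The level of RNA from each intron cannot be told from lists of peaks.

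**Figure D3:**
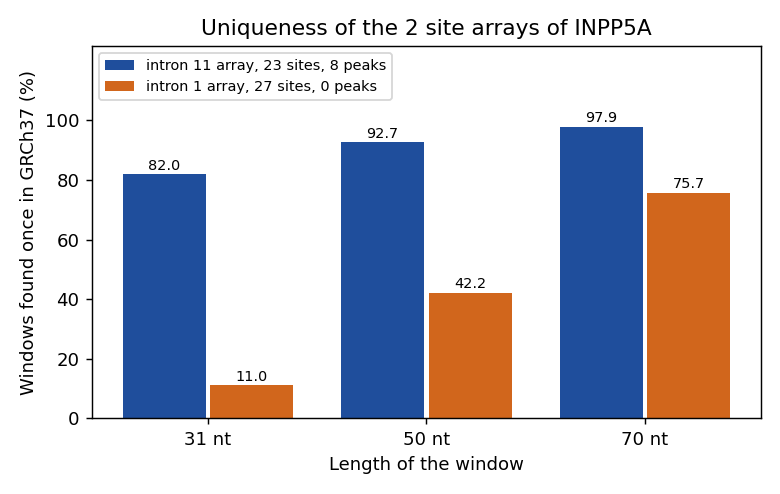
Share of windows of 31, 50 and 70 nt found once in GRCh37, in percent, for the intron 11 block (blue, 23 sites, 8 peaks) and the intron 1 block (orange, 27 sites, 0 peaks) of INPP5A. The intron 1 block is lower at each length, with 42.2% against 92.7% at 50 nt.

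The other 76 sites of the gene, outside both blocks, had no peak over them either. This is the common case, as 145 of 326063 sites (0.0445%) in introns of protein-coding genes and lncRNAs lay under a peak. All 126 sites of the gene lay in introns of the canonical transcript, and 10 of them were 8mers. Of the 8mers, 1 lay under a peak, that in peak 4, and the other 9 did not. The next largest groups of sites in the gene, linked by gaps of at most 100 nt, held 5 sites in intron 1, 3 in intron 4 and 3 in intron 8, with no peak over them. The group of 5 (chr10:134387868-134388021) follows the intron 1 block. Each of its sites is GUGUGAG followed by G, as in that block, so a longer link would join them. The gene also held 72 sites of miR-342-5p on its strand, with no miR-342-5p peak. The share of miR-342-5p sites under a peak across the genome was not counted.

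Alternating G/U runs of at least 10 nt were near the summit of 2 of the 10 peaks, compared with 12.8% of all miR-342-3p peaks and 57.3% of the intron peaks outside INPP5A. Peak 8 had a run of 17 nt, and peak 9 a run of 10 nt. The longest run near the summit was 7 to 9 nt in the other peaks. The gene body held 30 runs of at least 10 nt, and 3 of them lay under a peak, 1 in peak 8 and 2 in peak 9. How many such runs lie under a peak across the genome was not counted, so these counts have no background. The longest runs of the gene, of 37 and 25 nt in intron 2 and 22 nt in intron 1, had no peak. Among the 10 peaks, only peak 10 thus lacked both a site and a run.

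Peak 10 differed from the others in sequence and place. It covered the last 75 nt of exon 13 (134591175–134591286) and ended on the last base of that exon, with its summit 15 nt before it. C made up 33.7% of its window, compared with 8.91–14.9% in peaks 1 to 9. The window of 50 nt on each side of the summit was genomic, so for peak 10 it ran past the exon into the intron. It held no sequence of the next exon, which follows in the mRNA. The site search and the predicted pairing of peak 10 used the same window. A site, which peak 10 lacked, was present in 16.3% of the 1915 coding exon peaks outside INPP5A. Their median score was 24 (quartiles 14 and 50), compared with 23 for peak 10.

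The predicted pairing of miR-342-3p with the sequence from 50 nt before to 50 nt after each summit was computed with RNAduplex, as a description of the sequence. The lowest free energy was -29.0 kcal/mol for peak 4, and the other peaks of the block lay between -26.6 and -19.3 kcal/mol. It was -16.6 kcal/mol for peak 9 and -18.3 kcal/mol for peak 10. The median was -16.0 kcal/mol over all miR-342-3p peaks and -21.8 kcal/mol over the intron peaks outside INPP5A.

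Across the genome, most dense blocks of sites in introns had no peak. Sites in the introns of protein-coding genes and lncRNAs were linked where at most 100 nt separated them. Of the 174 groups of 10 or more sites, 7 (4.02%) carried a miR-342-3p peak, and INPP5A held 1 of these. The share was 1.12% for groups of 5 to 9 sites (3 of 267), 0.201% for groups of 2 to 4 and 0.00886% for single sites. With links of 50 nt, 3 of 129 groups of 10 or more sites carried a peak, and with links of 200 nt, 8 of 203. These links were chosen after the values were seen. The intron 11 group of INPP5A, counted from its first to its last site, ranked 48 by number of sites and the intron 1 group 35. With 22, the intron 11 group had the most sites under a peak. The gene was chosen by its number of peaks, so this place is a description and was not tested. The median share of windows of 31 nt found once was 89.4% in the 7 groups with a peak (range 37.2–100%) and 84.1% in the 167 without (range 0–100%). In 114 of the 167 groups without a peak, at least 50% of the windows were unique, and whether their genes are transcribed in these cells is unknown here.

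**Figure D4:**
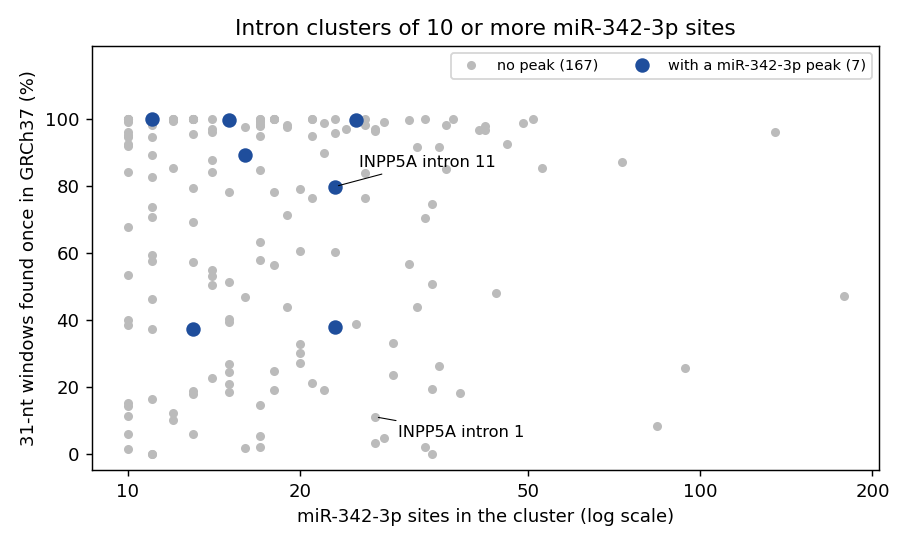
The 174 groups of 10 or more miR-342-3p sites in introns, with the number of sites on a log scale and the share of windows of 31 nt found once in GRCh37, in percent. Blue points are the 7 groups with a peak and grey points the 167 without, and the 2 groups of INPP5A are marked.

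By number of miR-342-3p peaks in introns, the genes most like INPP5A were EVI5L with 6, MRPS6 with 5, RGS12 with 5, and ENSG00000269967 and CMIP with 3 each. In this count a peak was placed for each gene separately. It can therefore lie in an exon of another gene on the same strand, unlike the 126 intron peaks above. How many of these peaks do so was not counted. In EVI5L, a Rab GTPase-activating protein gene on chromosome 19, the 6 peaks lay within 646 nt, all had a site, and the scores were 6–22 (median 9.5). In RGS12, a regulator of G-protein signalling on chromosome 4, 3 of 5 peaks had a site, with up to 5 around a summit, and the scores were 9–16. In MRPS6, a mitochondrial ribosomal protein gene on chromosome 21, 1 of 5 peaks had a site, and the scores were 10–23. The scores of INPP5A in introns, 6–23 with a median of 14, overlapped those of EVI5L, MRPS6 and RGS12. A total of 6 genes had 3 intron peaks, of which the latter 2 had the highest scores. The 3 scores of ENSG00000269967, a gene with no symbol in the annotation, were 7–67, and those of CMIP, an adaptor protein gene, were 17–37. Over all genes with an intron peak, 91 had 1.

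Other genes of inositol phosphate metabolism were looked up from lists of names. Of 10 other genes on the list drawn up for 5-phosphatases, 1 had a miR-342-3p peak and 1 a miR-342-5p peak. The list includes INPP5F by its name, and membership of the family was not checked. The miR-342-3p peak scored 69 and lay in the 3′UTR of SYNJ2, a phosphoinositide phosphatase of the synaptojanin type. The miR-342-5p peak scored 12 and lay in coding sequence of INPPL1, which encodes SHIP2. Neither peak had a site of its mimic. Over all protein-coding genes, 11.1% had a miR-342-3p peak and 11.2% a miR-342-5p peak.

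Of 37 genes of inositol trisphosphate signalling, 6 had a miR-342-3p peak and 4 a miR-342-5p peak. The shares over all protein-coding genes were 11.1% and 11.2%, and no test was made. The receptors for inositol trisphosphate are calcium channels. ITPR1 had a coding exon peak of miR-342-3p that scored 60. With miR-342-5p, it had a coding exon peak that scored 53 and a 5′UTR peak that scored 18 and had a 7mer site. The coding exons of ITPR3 had miR-342-3p peaks that scored 44, with an 8mer, and 16, with a 7mer, and an intron had 1 that scored 16 and had no site. The intron peak of ITPR3 was the only one in an intron among the 37 genes.

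Of the kinases that add phosphates to inositol, IPMK had a 3′UTR peak of miR-342-3p that scored 59 and IP6K2 a coding exon peak that scored 29, both without a site. IP6K1 had a miR-342-5p peak with a score of 9. MINPP1, a phosphatase of inositol polyphosphates, had miR-342-3p scores of 12 and 10 and 4 miR-342-5p peaks with scores of 9–14, all in coding exons. CALM3, a calmodulin gene, had a miR-342-3p score of 48 in the 3′UTR, and the phospholipase gene PLCD3 a miR-342-5p score of 10. No gene of either list other than INPP5A had more than 3 miR-342-3p peaks.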

How the data were processed

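Per the submitters' processing notes and the study's methods, the authors trimmed reads with cutadapt 1.13, mapped them to hg19 with TopHat2 2.0.13, used UMI-tools, passed alignments through a Samtools quality filter and ran the peak caller MACS2 2.1.1.20160309. The deposited score is a whole number of at least 5 per peak, with replicates merged and strands called separately. The scaling of libraries and the threshold of the quality filter, on which the treatment of reads with several positions depends, are not given in the sources used here. Positions were read as 0-based starts and summits and are printed 1-based.

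Peaks were placed by midpoint and strand on GRCh37 with GENCODE release 44 mapped to it, using basic transcripts without readthrough transcripts with a 3′UTR taking precedence, then coding sequence, then a 5′UTR, then exons of non-coding transcripts, and introns last. Sites and alternating G/U runs of at least 10 nt were searched within 50 nt of the summit, after a check on simulated data. Tools were Python 3.11.15, pysam 0.24.0, samtools 1.23.1, pandas 2.3.3, numpy 2.4.6, matplotlib 3.10.9 and RNAduplex of ViennaRNA 2.7.2. No test was made, since there are no replicate values and the peaks share 1 gene. The gene, the lists of genes and the settings were chosen with earlier results of these data known. Genes named are INPP5A, its overlapping gene, the listed inositol phosphate genes with a peak, and the 5 genes with the most miR-342-3p intron peaks; names outside this rule are marked. RefSeq gave the miRNA sequence. The depth of the libraries is unknown. Alternatives are in the closing section.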

Additional observations from a re-analysis of the deposited data

How the results depend on the processing

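INPP5A has no peak with a score above 50 or above 100, so the miR-342-3p peaks, the intron peaks, the peaks with a site and the peaks at a run all went to 0 above 50, and the miR-342-3p peaks to 0 above 100. A score of at least 10 left 8 miR-342-3p peaks, of which 7 were in introns and 6 had a site, and moved the median score to 15.5. The number of peaks rests on how MACS2 split the block: merging peaks within 25 nt left 3, with a median of the highest scores of 23, and merging within 1 kb left 2. With 8mers alone, 1 peak had a site and 1 site lay under a peak. Runs of at least 16 nt were found at 1 peak, with 1 such run under a peak, and runs of at least 20 nt at 0 and 0. The number of intron groups with a peak went from 7 to 3 with links of 50 nt, added after the data were seen. The number of miR-342-5p peaks was also 0 when any overlap with the gene body was counted; higher minimum scores could not change it. No paired analysis was possible because the lists merge the replicates, and no replicate could be left out. Depth is unknown, so binding below the minimum score cannot be told from none.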

Other observations

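The other 6 groups of 10 or more miR-342-3p sites in introns that carried a peak lay in RGS12, WDR4, EVI5L, ACTN1, NTM and TNS3; WDR4, ACTN1, NTM and TNS3 are named after their values were seen. In RGS12, 19 of 25 sites lay under a peak, in EVI5L 15 of 16, in ACTN1, which encodes an actin crosslinker, 13 of 15, and in TNS3, a focal adhesion gene, 6 of 11. In WDR4 3 of 23 and in NTM 2 of 13 sites lay under a peak. Windows of 31 nt found once made up 37.8% in WDR4, 37.2% in NTM, 100% in TNS3 and 79.9% in intron 11 of INPP5A. The share was 99.8% in RGS12, 89.4% in EVI5L and 99.7% in ACTN1, and its part in the sites under a peak was not tested. The largest group without a peak, in MAPK8IP3, held 178 sites.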
